A study of Mus musculus with 8 samples.

Results

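The 10 genes described here encode immune checkpoint receptors, members of the B7 ligand family and related surface molecules, namely Pdcd1, Ctla4, Tigit, Havcr2, Klrg1, Icos, Cd274, Icosl, Cd80 and Cd83. They were taken by gene name from the deposited expression table and are 10 of its 22075 listed genes. The study measured RNA by sequencing in group 2 innate lymphoid cells (ILC2s) from the lungs of C57BL/6 mice, with 8 libraries in 4 groups of 2. The groups are STAT3-KO cells given IL-33, WT cells given IL-33, STAT3-KO control cells and WT control cells. STAT3-KO cells came from Stat3 fl/fl mice carrying Vavicre, a Cre recombinase driven by a promoter active in blood-forming cells, and WT cells came from Stat3 fl/fl mice without it. All 4 groups share the floxed Stat3 alleles, a short papain exposure of the mice before cell purification, and about 5 days of expansion in 10 ng/ml IL-2 alone. IL-33 was then added at 10 ng/ml to the IL-33 groups, for a further 2 days. The labels give no medium for the control cells over those 2 days, no age or sex, no floxed exons, and no word on whether the 2 libraries of a group came from separate mice or cultures. The p-values below therefore measure only the spread between these libraries, which may be technical. Loss of STAT3 and the presence of Cre cannot be told apart in this design, and in bulk RNA fewer cells with a transcript and less transcript per cell cannot be told apart either.

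ILC2s are tissue lymphocytes without antigen receptors that answer the epithelial alarmin IL-33 with type 2 cytokines. Checkpoint receptors such as PD-1, CTLA-4, TIGIT and TIM-3 restrain lymphocytes when bound by their ligands, while ICOS promotes survival and cytokine production in ILC2s when bound by ICOSL, which ILC2s can express themselves. B7 family ligands are best known on antigen-presenting cells, where CD80 engages both the activating receptor CD28 and the inhibitory receptor CTLA-4. STAT3 is the transcription factor activated by IL-6, IL-10 and related cytokines.

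Values are FPKM, which divide the fragments of a gene by its length and by library depth, so levels can be set side by side between genes. Differences are given as log2 differences of (FPKM + 1) with their standard error (SE), which understates the change of low genes. A difference passed the test when its adjusted p, from limma with Benjamini-Hochberg adjustment over 11877 genes with at least 1 FPKM in at least 2 libraries, was under 0.05. All 10 genes entered the test. Ctla4 did so only through the 2 libraries of IL-33-treated WT cells, so its entry already depended on a difference between groups.

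Stat3 itself had 8.03 and 9.69 FPKM in IL-33-treated STAT3-KO cells, against 49.0 and 55.3 FPKM in IL-33-treated WT cells. It had 15.3 and 16 FPKM in STAT3-KO control cells, against 41.7 and 50.7 FPKM in WT control cells, so all 4 STAT3-KO libraries lay below all 4 WT libraries. Depth recovered from the values was 15800000 to 19900000 reads per library, and replicate libraries correlated across genes at r = 0.971 to 0.983. All 12 ILC2 markers were listed, and each reached 1 FPKM in at least 1 library. Their summed level was 3661 to 4089 FPKM in IL-33-treated STAT3-KO cells, 10031 to 10752 FPKM in IL-33-treated WT cells, 3156 to 3254 FPKM in STAT3-KO control cells and 3122 to 3330 FPKM in WT control cells. Most of the sum with IL-33 in WT cells was the cytokine transcripts Il5, Il13 and Areg (6350 to 6862 FPKM), which summed to 2092 to 2488 FPKM in IL-33-treated STAT3-KO cells and to at most 97.4 FPKM in control cells. The other 9 markers summed to 1569 to 1602 FPKM in IL-33-treated STAT3-KO cells, 3682 to 3890 FPKM in IL-33-treated WT cells, 3060 to 3157 FPKM in STAT3-KO control cells and 3048 to 3251 FPKM in WT control cells. Gata3, the defining transcription factor of ILC2s, stood at 175 and 171 FPKM in IL-33-treated STAT3-KO cells, against 278 and 292 FPKM in IL-33-treated WT cells. Il1rl1, the IL-33 receptor, stood at 78.5 and 92.4 FPKM in IL-33-treated STAT3-KO cells, against 350 and 370 FPKM in IL-33-treated WT cells. Il17rb, a receptor for IL-25, stood at 0.23 and 0.47 FPKM and Thy1, a surface marker of ILC2s, at 2.56 and 2.37 FPKM in IL-33-treated STAT3-KO cells, against 2.28 and 2.54 FPKM for Il17rb and 31.7 and 38.0 FPKM for Thy1 in IL-33-treated WT cells. Not every marker was lower. Areg stood at 745 and 648 FPKM in IL-33-treated STAT3-KO cells, against 727 and 680 FPKM in IL-33-treated WT cells. Rora stood at 6.49 and 6.32 FPKM in the same STAT3-KO libraries, against 6.36 and 6.27 FPKM in the WT libraries. The other markers of the list were all lower in both IL-33-treated STAT3-KO libraries than in both IL-33-treated WT libraries. The share of these differences in the results for the 10 genes was not tested.

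Klrg1 was the most abundant of the 10 transcripts in every group, and the 10 genes differed in both directions within every comparison that made calls. In STAT3-KO cells, IL-33 changed 8 of the 10 genes, with Pdcd1, Tigit, Havcr2, Cd80 and Cd83 higher and Klrg1, Icos and Icosl lower, beside 51.0% of all tested genes, 20.4% higher and 30.6% lower. In WT cells, IL-33 changed 7 of the 10, with Pdcd1, Ctla4, Tigit and Cd80 higher and Icos, Cd274 and Icosl lower, beside 36.1% of all tested genes, 14.5% higher and 21.6% lower. With IL-33, STAT3-KO cells differed from WT cells in 6 of the 10, with Havcr2, Cd80 and Cd83 higher and Ctla4, Klrg1 and Icosl lower, beside 32.6% of all tested genes, 16.3% higher and 16.4% lower. Among control cells, none of the 10 passed the test between STAT3-KO and WT, beside 0.463% of all tested genes. At an unadjusted limma p under 0.05 there were 7 of the 10 in that comparison, 5 higher and 2 lower in STAT3-KO, beside 9.31% of all tested genes, 5.04% higher and 4.27% lower. The response to IL-33 itself differed between the genotypes, by the interaction term, for Ctla4, Klrg1, Cd80 and Cd83, which is 4 of the 10 beside 15.1% of all tested genes. The STAT3-KO response was the higher one for Cd80 and Cd83, beside 6.72% of all tested genes. It was the lower one for Ctla4 and Klrg1, beside 8.43%. Ctla4 is in the counts for IL-33 in WT cells, between genotypes with IL-33 and between responses. Its entry into the test depended on IL-33-treated WT cells, so its part in those counts is a description.

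The median log2 difference of the 10 genes was 0.95 for IL-33 in STAT3-KO cells and 0.36 for IL-33 in WT cells, beside medians over all tested genes of -0.18 and -0.14. It was 0.14 between STAT3-KO and WT cells with IL-33, beside 0.01, and 0.38 between the control groups, beside 0.02. The comparisons share libraries, so their counts are not independent of one another. Under median-of-ratios scaling the 7 genes changed by IL-33 in WT cells split into 5 higher and 2 lower, with Havcr2 gained and Cd274 lost. With values rescaled to TPM the response differed between genotypes for 3 genes, 1 higher and 2 lower, with Cd80 lost.

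**Figure D1:**
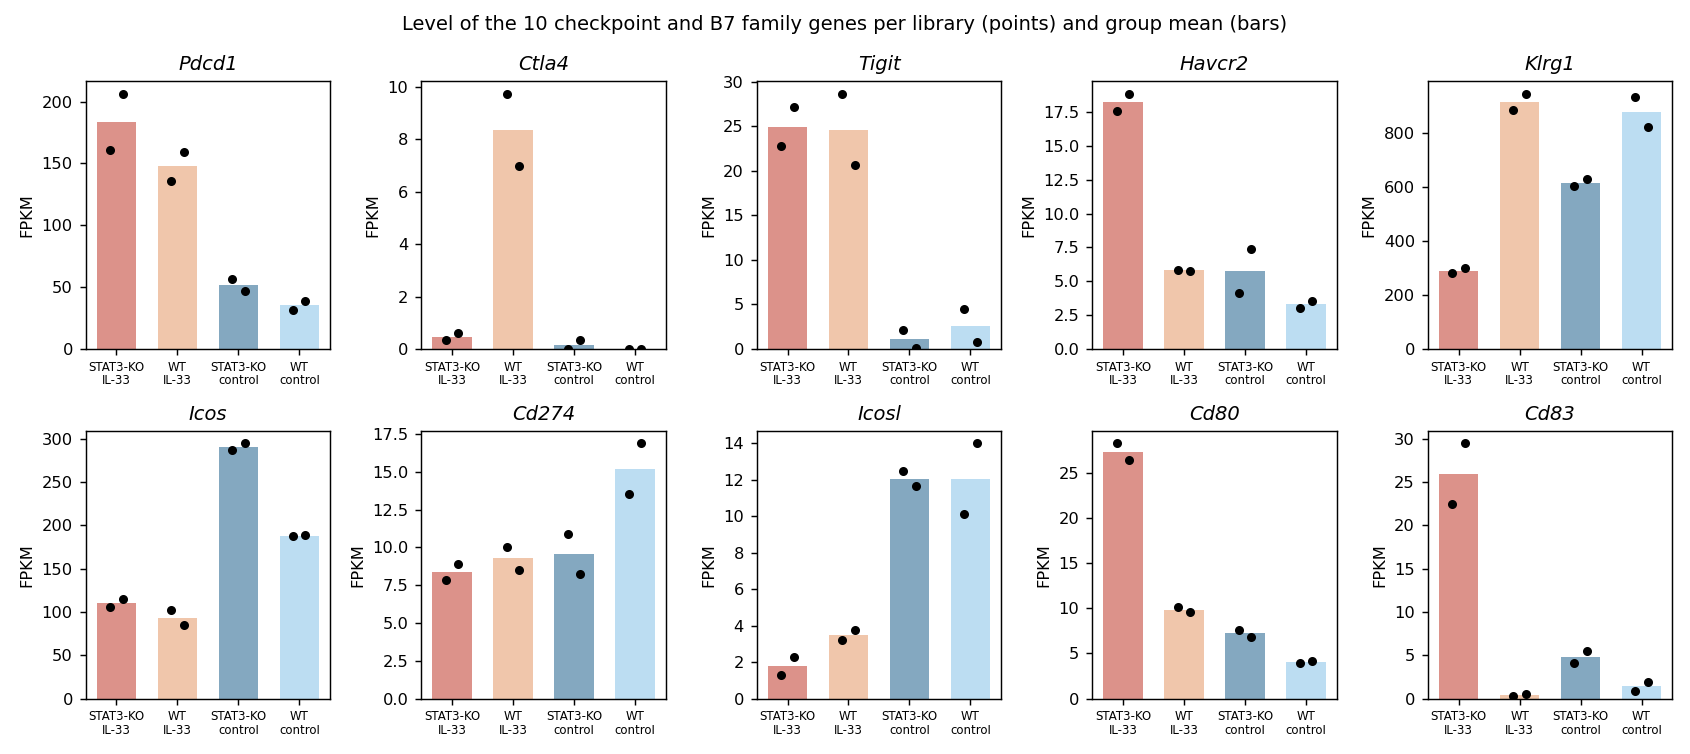
Level of each of the 10 genes in every library, in FPKM on the vertical axis of each panel, with points for libraries and bars for the mean of the 2 libraries of a group. Ctla4 stands alone in IL-33-treated WT cells at 9.75 and 6.99 FPKM, and Cd83 stands highest in IL-33-treated STAT3-KO cells at 22.5 and 29.5 FPKM.

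The promoters of 7 of the 10 genes were matched in RefSeq on build GRCm38.p6, as windows of 250 bases before to 50 bases after the transcription start, for Pdcd1, Ctla4, Tigit, Havcr2, Cd274, Icosl and Cd80. Letters of 3 motifs were searched on both strands of these windows and of all 32851 windows of the same length. The STAT motif TTCNNNGAA was in 0 of the 7 windows, and in 8.3% of all windows. The letters TGANTCA, a looser form of the AP-1 motif with any base in the middle, were in 2 of the 7 and in 7.81% of all windows. The 2 were those of Havcr2 and Cd80, and both matches read TGATTCA, with T where the usual AP-1 site has C or G. The GATA motif AGATAA was in 2 of the 7, those of Cd274 and Tigit, and in 11.2% of all windows. No match overlapped a match of another motif. The 250 bases before the start are printed for Havcr2 and Cd80, which carry the TGATTCA letters. They are also printed for Ctla4, which had no match of any of the 3 motifs. Pdcd1 and Tigit, like Havcr2 and Cd80, had their highest mean in IL-33-treated STAT3-KO cells, but their windows held no TGANTCA match. For Tigit that mean was 25.0 FPKM, close to 24.6 FPKM in IL-33-treated WT cells. The stretches of Havcr2, Cd80 and Ctla4 are on the plus strand, in that order at chr11:46454681-46454930, chr16:38458683-38458932 and chr1:60908775-60909024. Capitals mark the TGATTCA match, which starts 200 bases before the start of Havcr2 and 42 bases before that of Cd80. A match of letters is a description and not a bound site.
Havcr2: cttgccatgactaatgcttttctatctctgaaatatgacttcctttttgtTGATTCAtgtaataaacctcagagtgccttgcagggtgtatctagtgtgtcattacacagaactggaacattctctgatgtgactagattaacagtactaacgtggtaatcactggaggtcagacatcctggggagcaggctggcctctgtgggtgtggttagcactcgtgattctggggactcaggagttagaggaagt
Cd80: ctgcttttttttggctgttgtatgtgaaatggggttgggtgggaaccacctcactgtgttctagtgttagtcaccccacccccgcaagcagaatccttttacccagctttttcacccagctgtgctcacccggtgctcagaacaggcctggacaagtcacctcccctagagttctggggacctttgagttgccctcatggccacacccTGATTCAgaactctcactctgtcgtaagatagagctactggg
Ctla4: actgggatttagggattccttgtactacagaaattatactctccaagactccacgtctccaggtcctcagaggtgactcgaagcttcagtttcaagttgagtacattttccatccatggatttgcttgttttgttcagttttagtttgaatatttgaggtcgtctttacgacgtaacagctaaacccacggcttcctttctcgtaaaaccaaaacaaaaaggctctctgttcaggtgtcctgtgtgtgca

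Pdcd1 encodes PD-1, the inhibitory receptor bound by PD-L1 and PD-L2, and lies on the minus strand at chr1:94038305-94052553 (GRCm38). It had 161 and 206 FPKM in IL-33-treated STAT3-KO cells, 136 and 159 FPKM in IL-33-treated WT cells, 56.8 and 47.2 FPKM in STAT3-KO control cells, and 31.6 and 38.8 FPKM in WT control cells. All 4 libraries with IL-33 lay above all 4 control libraries in both genotypes. IL-33 raised Pdcd1 3.54-fold by group means in STAT3-KO cells (log2 difference 1.80 ± 0.16 SE, limma adjusted p = 6.53e-05) and 4.19-fold in WT cells (2.04 ± 0.16 SE, adjusted p = 5.44e-05). This moved Pdcd1 to rank 298 of all listed genes in STAT3-KO cells and rank 358 in WT cells with IL-33, against ranks 1072 and 1672 in the STAT3-KO and WT controls. The 2 responses were not shown to differ (-0.24, 95% interval -0.77 to 0.29, adjusted p = 0.516). STAT3-KO minus WT was 0.31 with IL-33 (95% interval -0.07 to 0.68, adjusted p = 0.19) and 0.55 in control cells (0.17 to 0.93, adjusted p = 0.29). Neither passed the test, although the 2 STAT3-KO control libraries both lay above the 2 WT control libraries.

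Ctla4, the inhibitory receptor for CD80 and CD86, was highest in IL-33-treated WT cells. It had 0.342 and 0.604 FPKM in IL-33-treated STAT3-KO cells, 9.75 and 6.99 FPKM in IL-33-treated WT cells, 0 and 0.321 FPKM in STAT3-KO control cells, and was listed at 0 in both WT control libraries. In reads this was 13 and 25 in IL-33-treated STAT3-KO cells, 452 and 265 in IL-33-treated WT cells, and 0 and 12 in STAT3-KO control cells. A level of 3 reads corresponds to 0.0647 to 0.0813 FPKM for this gene, which is the level that a count of 0 still allows. With IL-33 the group mean was 17.7-fold lower in STAT3-KO than in WT cells (log2 difference -2.66 ± 0.25 SE, limma adjusted p = 0.000163). IL-33 raised Ctla4 in WT cells (3.21 ± 0.25 SE, adjusted p = 4.29e-05), where no fold is given because the controls were at 0. In STAT3-KO cells the difference with IL-33 was 0.35 (95% interval -0.21 to 0.92, adjusted p = 0.262), and the responses differed between genotypes by -2.86 ± 0.35 SE (adjusted p = 0.00213). These sizes depend on the pseudocount: with 0.1 in place of 1, the response in WT cells was 6.38 and the difference between responses -4.94. The gene lies at chr1:60887000-60915832 (GRCm38, plus strand), and a ribosomal pseudogene inside it, Rpl18-ps1, had at most 0.119 FPKM in any library. The printed promoter stretch, chr1:60908775-60909024, lies inside this span, so its transcription start differs from the start of the span. The motif search refers to the former, and distances to neighbouring genes to the latter span.

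Tigit, an inhibitory receptor for PVR and nectins, was low in control cells and high with IL-33 in both genotypes. It had 22.8 and 27.1 FPKM in IL-33-treated STAT3-KO cells, 28.6 and 20.6 FPKM in IL-33-treated WT cells, 2.16 and 0.129 FPKM in STAT3-KO control cells, and 4.46 and 0.721 FPKM in WT control cells. Replicate control libraries differed severalfold in both genotypes, and the genotypes overlapped within each treatment. The STAT3-KO control libraries held 33.4 and 1.91 reads. The second lay below 3 reads, a level of 0.164 to 0.206 FPKM for this gene. IL-33 raised Tigit in STAT3-KO cells (log2 difference 3.77 ± 0.57 SE, limma adjusted p = 0.000942) and in WT cells (3.05 ± 0.57 SE, adjusted p = 0.00436). Leave-one-out values ranged from 3.03 to 4.52 in STAT3-KO cells and from 2.21 to 3.88 in WT cells. The difference between STAT3-KO and WT cells with IL-33 was 0.03 with a wide 95% interval of -1.28 to 1.34 (adjusted p = 0.979), which leaves room for more than a doubling either way. The gene lies on the minus strand at chr16:43648861-43664184 (GRCm38), 5162 kb from Cd80 on the same chromosome.

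Havcr2 encodes TIM-3, a receptor best known for restraining type 1 T cells, and lies at chr11:46454935-46481255 (GRCm38, plus strand). It had 17.6 and 18.9 FPKM in IL-33-treated STAT3-KO cells, 5.82 and 5.78 FPKM in IL-33-treated WT cells, 4.11 and 7.40 FPKM in STAT3-KO control cells, and 3.04 and 3.55 FPKM in WT control cells. The IL-33-treated STAT3-KO libraries stood apart from the other 6, while the STAT3-KO control libraries lay on either side of the IL-33-treated WT libraries. With IL-33, Havcr2 was 3.14-fold higher in STAT3-KO than in WT cells (log2 difference 1.5 ± 0.23 SE, limma adjusted p = 0.00174). IL-33 raised it 3.17-fold in STAT3-KO cells (1.55 ± 0.23 SE, adjusted p = 0.000799). The value for IL-33 in WT cells was 0.66 ± 0.23 SE, just outside the threshold at adjusted p = 0.0511. It was inside the threshold in 6 of 16 alternative fits (adjusted p from 0.019 to 0.171), among them those without STAT3-KO control replicate 1 (0.0190) or replicate 2 (0.0201), and with the replicate number as a block (adjusted p = 0.0407). The difference between the responses was 0.89 (95% interval 0.15 to 1.63, adjusted p = 0.0994), with leave-one-out values from 0.53 without STAT3-KO control replicate 1 (adjusted p = 0.238) to 1.25 without STAT3-KO control replicate 2, the 1 alternative in which it passed (adjusted p = 0.0361).

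Klrg1, an inhibitory lectin-like receptor for cadherins and a marker of mature ILC2s, ranked between 33 and 167 among all listed genes in the 4 groups. It had 279 and 298 FPKM in IL-33-treated STAT3-KO cells, 884 and 943 FPKM in IL-33-treated WT cells, 601 and 628 FPKM in STAT3-KO control cells, and 931 and 822 FPKM in WT control cells. The order was lowest in IL-33-treated STAT3-KO cells, then STAT3-KO control cells, then both WT groups, whose libraries overlapped. With IL-33, Klrg1 was 3.16-fold lower in STAT3-KO than in WT cells (log2 difference -1.66 ± 0.09 SE, limma adjusted p = 1.79e-05). IL-33 lowered it 2.13-fold in STAT3-KO cells (-1.09 ± 0.09 SE, adjusted p = 4.68e-05). In WT cells the difference with IL-33 was 0.06 (95% interval -0.15 to 0.28, adjusted p = 0.631), and the responses differed by -1.15 ± 0.13 SE (adjusted p = 0.00165). In control cells STAT3-KO minus WT was -0.51 (95% interval -0.72 to -0.30), outside the threshold at adjusted p = 0.0761 although the libraries did not overlap. The gene lies on the minus strand at chr6:122270596-122282882 (GRCm38).

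**Figure D2:**
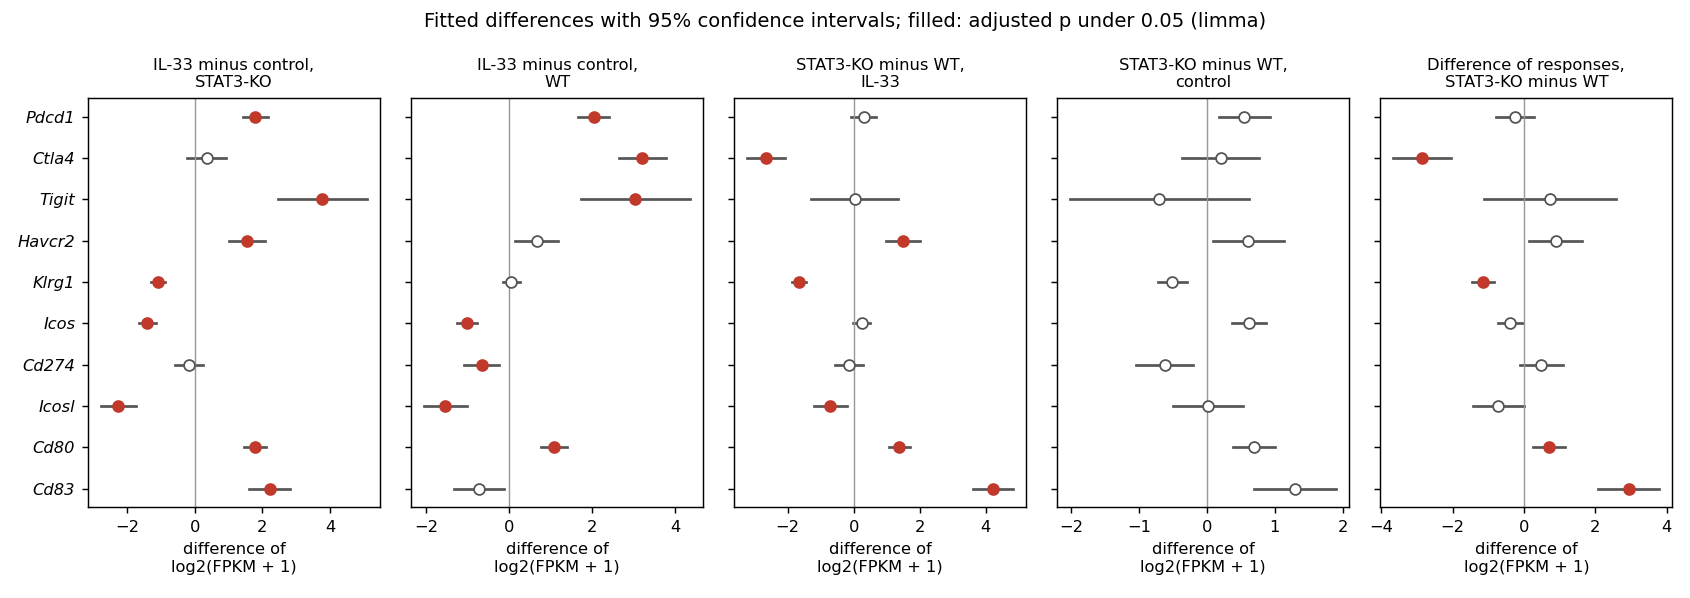
Log2 differences of (FPKM + 1) for the 10 genes in the 5 comparisons, 1 panel each, with 95% confidence intervals as bars and filled points where the adjusted p was under 0.05. With IL-33, Cd83 lies farthest to the STAT3-KO side at 4.23 and Ctla4 farthest to the WT side at -2.66, while no point is filled between the control groups.

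Icos, the costimulatory receptor that binds ICOSL, lies 62.1 kb beyond Ctla4 on chromosome 1 (chr1:60977927-61000320, GRCm38, plus strand). It had 105 and 115 FPKM in IL-33-treated STAT3-KO cells, 102 and 84.8 FPKM in IL-33-treated WT cells, 287 and 294 FPKM in STAT3-KO control cells, and 188 and 188 FPKM in WT control cells. Every library with IL-33 lay below every control library, in both genotypes. IL-33 lowered Icos 2.64-fold in STAT3-KO cells (log2 difference -1.39 ± 0.11 SE, limma adjusted p = 2.88e-05) and 2.01-fold in WT cells (-1.01 ± 0.11 SE, adjusted p = 0.000258). Among controls, the mean was 1.55-fold higher in STAT3-KO cells (0.63, 95% interval 0.38 to 0.87), outside the threshold at adjusted p = 0.067. With IL-33 the genotypes differed by 0.24 (95% interval -0.01 to 0.49, adjusted p = 0.125), and the responses by -0.38 (-0.74 to -0.03, adjusted p = 0.126). Its neighbour Ctla4 moved the other way with IL-33 in WT cells, and Cd28, 114 kb before Ctla4, had at most 0.419 FPKM and was not tested. A gene model overlapping Icos, Gm37039, had at most 1.27 FPKM.

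Icosl, the ligand of ICOS, was lowered by IL-33 in both genotypes, as Icos was. It had 1.30 and 2.29 FPKM in IL-33-treated STAT3-KO cells, 3.22 and 3.76 FPKM in IL-33-treated WT cells, 12.5 and 11.7 FPKM in STAT3-KO control cells, and 10.1 and 14 FPKM in WT control cells. The control libraries of the genotypes overlapped, with a difference of 0.02 (95% interval -0.50 to 0.53). IL-33 lowered Icosl 6.72-fold in STAT3-KO cells (log2 difference -2.25 ± 0.22 SE, limma adjusted p = 0.000101) and 3.45-fold in WT cells (-1.53 ± 0.22 SE, adjusted p = 0.00128). The difference between these responses was -0.72 (95% interval -1.44 to 0.00, adjusted p = 0.158). With IL-33, Icosl was 1.94-fold lower in STAT3-KO than in WT cells (-0.70 ± 0.22 SE, adjusted p = 0.0417), a call that was lost in 7 of 16 alternative fits (adjusted p from 0.0275 to 0.214). Leaving out STAT3-KO IL-33 replicate 1 gave -0.45 (adjusted p = 0.214), and leaving out either WT IL-33 replicate gave adjusted p = 0.107 or 0.195. Without either STAT3-KO control replicate the adjusted p was 0.067 or 0.0669. The gene lies at chr10:78069302-78083913 (GRCm38, plus strand).

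Cd274 encodes PD-L1, a ligand of PD-1, and was the 1 gene of the 10 whose log2(FPKM + 1) had an SD under 0.5 over the 8 libraries. It had 7.84 and 8.87 FPKM in IL-33-treated STAT3-KO cells, 10.0 and 8.53 FPKM in IL-33-treated WT cells, 10.9 and 8.23 FPKM in STAT3-KO control cells, and 13.5 and 16.9 FPKM in WT control cells. The WT control libraries were highest, and the libraries of the other 3 groups overlapped. IL-33 lowered Cd274 1.64-fold in WT cells (log2 difference -0.65 ± 0.18 SE, limma adjusted p = 0.0242). That call was lost in 5 of 16 alternative fits (adjusted p from 0.0238 to 0.14), with median-of-ratios scaling (-0.49, adjusted p = 0.0598), without a filter on low values (adjusted p = 0.0566), and without WT control replicate 2 (adjusted p = 0.119), WT IL-33 replicate 1 (0.0626) or WT IL-33 replicate 2 (0.14). In STAT3-KO cells the difference with IL-33 was -0.17 (95% interval -0.58 to 0.25, adjusted p = 0.473). In control cells the mean was 1.59-fold higher in WT than in STAT3-KO cells (-0.62, 95% interval -1.04 to -0.20, adjusted p = 0.278), without passing the test. The gene lies at chr19:29367455-29388095 (GRCm38, plus strand), 22.8 kb before Pdcd1lg2, which encodes the other PD-1 ligand.

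Cd80, the B7 ligand of CD28 and CTLA-4, rose with IL-33 in both genotypes. It had 28.3 and 26.4 FPKM in IL-33-treated STAT3-KO cells, 10.1 and 9.57 FPKM in IL-33-treated WT cells, 7.62 and 6.82 FPKM in STAT3-KO control cells, and 3.99 and 4.16 FPKM in WT control cells. The 4 groups did not overlap, and within each treatment the STAT3-KO libraries were higher. IL-33 raised Cd80 3.79-fold in STAT3-KO cells (log2 difference 1.79 ± 0.14 SE, limma adjusted p = 2.62e-05) and 2.41-fold in WT cells (1.09 ± 0.14 SE, adjusted p = 0.000571). With IL-33 it was 2.78-fold higher in STAT3-KO than in WT cells (1.39 ± 0.14 SE, adjusted p = 0.00022). In control cells it was 1.77-fold higher by means (0.69, 95% interval 0.38 to 1.01), outside the threshold at adjusted p = 0.0916. The difference between the responses was 0.69 ± 0.19 SE (adjusted p = 0.0466), a call that was lost in 14 of 15 alternative fits (adjusted p from 0.0344 to 0.148). Leaving out any 1 of the 8 libraries gave an adjusted p of 0.0717 to 0.148, and the replicate block gave adjusted p = 0.0544. The gene lies at chr16:38458933-38486933 (GRCm38, plus strand). Cd86, its close relative, had at most 0.354 FPKM and was not tested.

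Cd83 encodes a surface protein of activated dendritic cells and lymphocytes that stabilises MHC class II and CD86 at the cell surface. It had 22.5 and 29.5 FPKM in IL-33-treated STAT3-KO cells, 0.332 and 0.526 FPKM in IL-33-treated WT cells, 4.12 and 5.50 FPKM in STAT3-KO control cells, and 0.857 and 1.96 FPKM in WT control cells. The 4 groups did not overlap, and both STAT3-KO groups lay above both WT groups. In reads, the IL-33 groups stood at 942 and 1347 in STAT3-KO cells, against 17 and 22 in WT cells. With IL-33 the mean was 60.6-fold higher in STAT3-KO than in WT cells (log2 difference 4.23 ± 0.26 SE, limma adjusted p = 2.6e-05). IL-33 raised Cd83 5.40-fold in STAT3-KO cells (2.21 ± 0.26 SE, adjusted p = 0.000267), and the responses differed by 2.93 ± 0.37 SE (adjusted p = 0.00256). In WT cells the mean was 3.29-fold lower with IL-33 (-0.72 ± 0.26 SE), outside the threshold at adjusted p = 0.0635. That value passed in 4 of 16 alternative fits (adjusted p from 0.023 to 0.292), with a pseudocount of 0.1 (-1.43, adjusted p = 0.0264), with TPM (-1.16, adjusted p = 0.0455), with the replicate block (adjusted p = 0.0230) and without WT control replicate 1 (-1.06, adjusted p = 0.0236). In control cells the mean was 3.41-fold higher in STAT3-KO than in WT cells (1.30, 95% interval 0.69 to 1.90, adjusted p = 0.102), without passing the test. The gene lies at chr13:43784775-43803132 (GRCm38, plus strand).

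**Figure D3:**
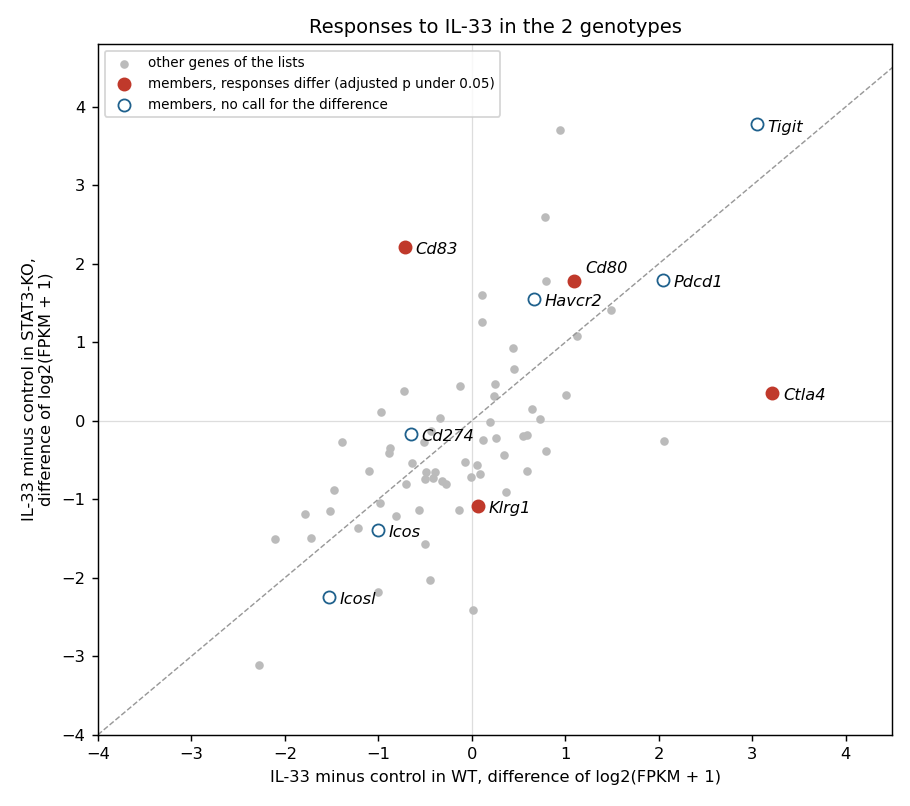
Response to IL-33 in STAT3-KO cells on the vertical axis against the response in WT cells on the horizontal axis, both as log2 differences of (FPKM + 1), with the dashed line marking equal responses. The 10 genes are labelled, in red where the interaction term passed the test, and genes of the pathway lists are grey; Cd83 lies above the line and Ctla4 and Klrg1 below it, while Pdcd1 lies near it at 1.80 in STAT3-KO cells and 2.04 in WT cells.

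Cd80, Cd83 and Icosl are also genes of antigen-presenting cells, so markers of such cells were read in the same libraries. Of 7 dendritic cell markers 5 were listed, and their summed level was 4.87 to 5.55 FPKM in IL-33-treated STAT3-KO cells, 5.34 to 7.37 FPKM in IL-33-treated WT cells, 2.30 to 3.10 FPKM in STAT3-KO control cells and 3.07 to 3.23 FPKM in WT control cells. Only Xcr1 and Zbtb46 reached 1 FPKM in any library, and Zbtb46 stood at 1.02 and 0.93 FPKM in IL-33-treated STAT3-KO cells, against 0.25 and 0.19 FPKM in IL-33-treated WT cells. Flt3 had at most 0.08 FPKM and Itgax at most 0.19 FPKM in any library. Of 7 macrophage and monocyte markers 6 were listed and only Cd68 reached 1 FPKM, with a summed level of 3.23 to 6.74 FPKM in IL-33-treated STAT3-KO cells, 5.93 to 6.78 FPKM in IL-33-treated WT cells, 1.30 to 3.09 FPKM in STAT3-KO control cells and 1.12 to 1.96 FPKM in WT control cells. Of 5 B cell markers Cd79a and Cd79b were listed, and their sum was 19.6 to 21.9 FPKM in IL-33-treated STAT3-KO cells, 13.1 to 13.9 FPKM in IL-33-treated WT cells, 3.26 to 4.13 FPKM in STAT3-KO control cells and 7.92 to 8.15 FPKM in WT control cells. Nearly all of this was Cd79b. Of 7 T cell markers 6 were listed and only Cd3g reached 1 FPKM, with a sum of 4.69 to 7.02 FPKM in IL-33-treated STAT3-KO cells, 4.27 to 5.14 FPKM in IL-33-treated WT cells, 8.74 to 9.35 FPKM in STAT3-KO control cells and 6.88 to 7.19 FPKM in WT control cells. The dendritic cell and macrophage sums overlapped between IL-33-treated STAT3-KO and WT cells, and most of these sums was Xcr1 and Cd68. The B cell sum was higher in STAT3-KO than in WT cells with IL-33, and lower in STAT3-KO than in WT control cells. The part of the Cd79b and Zbtb46 signals in the values of Cd80 and Cd83 was not tested.

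Klrg1, Tigit, Havcr2 and Ctla4 are also known from NK cells and T cells. Of 6 NK cell and ILC1 markers 5 were listed, and their sum was 4.44 to 4.98 FPKM in IL-33-treated STAT3-KO cells, 2.51 to 2.61 FPKM in IL-33-treated WT cells, 26.7 to 29.3 FPKM in STAT3-KO control cells and 8.78 to 10.5 FPKM in WT control cells. Most of it was Tbx21 or Prf1, and Eomes, Klrb1c and Ncr1 each had less than 0.5 FPKM in every library. Mast cell and basophil markers, of which Cpa3 and Mcpt8 were listed from 6 names, summed to 7.49 to 7.77 FPKM in IL-33-treated STAT3-KO cells, 127 to 155 FPKM in IL-33-treated WT cells, 111 to 140 FPKM in STAT3-KO control cells and 299 to 326 FPKM in WT control cells. Mcpt8, like Ctla4, was high only in IL-33-treated WT cells, at 92.8 and 113.5 FPKM, against at most 0.25 FPKM in the other 6 libraries. ILC3 markers summed to at most 4.52 FPKM, and epithelial and stromal markers to between 21.2 and 31.0 FPKM, in all 8 libraries. The part of these cell types in the values of the 10 genes was not tested.

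**Figure D4:**
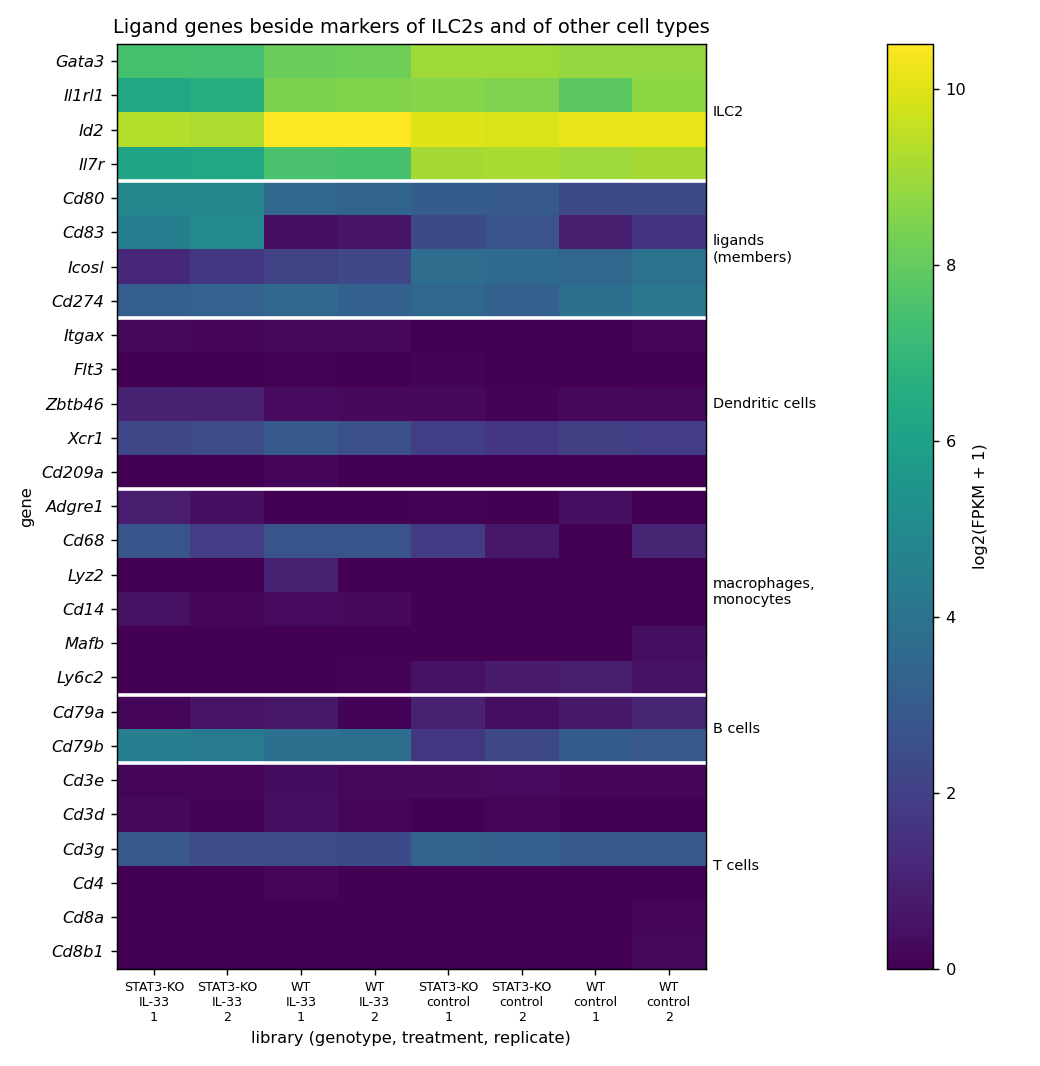
Heat map of log2(FPKM + 1) for markers of ILC2s and other cell types and for the ligand genes Cd80, Cd83, Icosl and Cd274, with 1 column per library and 1 row per gene. Gata3 is high in all 8 libraries, and Il1rl1 and Il7r are lowest in the IL-33-treated STAT3-KO libraries. Among dendritic cell markers only Xcr1 and Zbtb46 reach 1 FPKM, with Zbtb46 at 1.02 and 0.93 FPKM in the IL-33-treated STAT3-KO libraries.

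Other genes of the same pathways were read from 7 lists. Their counts stand beside the shares of all tested genes, of which IL-33 raised 20.4% and lowered 30.6% in STAT3-KO cells (median log2 difference -0.18) and raised 14.5% and lowered 21.6% in WT cells (median -0.14). Between STAT3-KO and WT cells with IL-33, 16.3% of all tested genes were higher and 16.4% lower (median 0.01). As with Ctla4, Btla and Timd2 entered the test only through IL-33-treated STAT3-KO libraries, and Lair1 and Trat1 only through IL-33-treated WT libraries. Lag3, Cd200 and Nectin2 entered only through IL-33-treated libraries of both genotypes. Cdh2 and Rc3h2 entered only through control libraries of both genotypes, and Cd160 only through WT libraries of both treatments. The entry of all these genes already depended on a difference between groups, so the counts of their lists are descriptions. Among other members of the CD28 and B7 family, 9 of 10 names were listed and 5 were tested. In that list IL-33 raised 2 and lowered 0 in STAT3-KO cells (median log2 difference -0.13, beside -0.18 over all tested genes), and raised 1 and lowered 1 in WT cells (median 0.11, beside -0.14). With IL-33, 2 were higher and 1 was lower in STAT3-KO than in WT cells. One of the higher pair was Btla, an inhibitory receptor for HVEM, which had 1.88 and 2.95 FPKM in IL-33-treated STAT3-KO cells and at most 0.291 FPKM in the other 6 libraries. Pdcd1lg2, which encodes the PD-1 ligand PD-L2, had 40.7 and 28.6 FPKM in IL-33-treated STAT3-KO cells, 15.9 and 16.7 FPKM in IL-33-treated WT cells, 10.7 and 7.96 FPKM in STAT3-KO control cells, and 7.5 and 10.6 FPKM in WT control cells. IL-33 raised it in STAT3-KO cells (1.78 ± 0.22 SE, limma adjusted p = 0.000337), unlike its neighbour Cd274, for which that difference did not pass. In WT cells its difference was 0.80 (adjusted p = 0.0234). That call was lost in 4 of 16 alternative fits, among them the fit without a filter on low values (adjusted p = 0.0714). The other losses were without WT control replicate 1 (0.57), WT IL-33 replicate 1 (0.83) or WT IL-33 replicate 2 (0.77). With IL-33, Pdcd1lg2 was higher in STAT3-KO than in WT cells by 1.02 ± 0.22 SE (adjusted p = 0.0089), with an adjusted p of 0.0645, 0.0587 or 0.0668 without WT IL-33 replicate 1, WT IL-33 replicate 2 or STAT3-KO IL-33 replicate 1. Tnfrsf14, which encodes the BTLA ligand HVEM, had 3.67 and 7.13 FPKM in IL-33-treated WT cells, against 9.08 and 11.8 FPKM in WT control cells (-0.88 ± 0.26 SE, adjusted p = 0.031). That call was lost in 8 of 16 alternative fits (adjusted p from 0.0132 to 0.18), with a value of -0.48 without WT IL-33 replicate 1, and also without WT control replicate 1 or 2 or STAT3-KO IL-33 replicate 1 or 2.

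In the TIGIT and nectin list, 8 of 12 names were listed and 5 were tested. The unlisted names, Pvrl1 to Pvrl4, are older names of Nectin1 to Nectin4, which were listed. IL-33 raised 1 and lowered 2 of them in STAT3-KO cells (median -0.41, beside -0.18 over all tested genes), and raised 1 and lowered 1 in WT cells (median -0.14, the same as over all tested genes). Cd96, a receptor that shares the ligand PVR with TIGIT, had 6.21 and 5.72 FPKM in IL-33-treated STAT3-KO cells, 14.6 and 10.0 FPKM in IL-33-treated WT cells, 58.4 and 59.5 FPKM in STAT3-KO control cells, and 65 and 59.5 FPKM in WT control cells. It fell with IL-33 in STAT3-KO cells (-3.11 ± 0.17 SE, limma adjusted p = 4.09e-06) and in WT cells (-2.27 ± 0.17 SE, adjusted p = 3.32e-05), the opposite direction to Tigit, and was lower in STAT3-KO than in WT cells with IL-33 (-0.91 ± 0.17 SE, adjusted p = 0.00402). Pvr, the ligand itself, had 2.36 and 2.45 FPKM in IL-33-treated STAT3-KO cells, against 5.09 and 6.25 FPKM in IL-33-treated WT cells (-0.96 ± 0.17 SE, adjusted p = 0.00324). In the TIM list 4 of 6 names were listed and 3 tested, with 1 raised and 2 lowered by IL-33 in STAT3-KO cells and 0 raised and 2 lowered in WT cells, beside 20.4% and 30.6% of all tested genes in STAT3-KO cells and 14.5% and 21.6% in WT cells. The 1 raised was Timd2, at 1.75 and 1.07 FPKM in IL-33-treated STAT3-KO cells and at most 0.0868 FPKM in the other 6 libraries. The 2 lowered in STAT3-KO cells were the TIM-3 ligand genes Lgals9 (-0.74 ± 0.13 SE, adjusted p = 0.0019) and Hmgb1 (-0.81 ± 0.12 SE, adjusted p = 0.000815). In WT cells the values were -0.50 for Lgals9 (adjusted p = 0.0171) and -0.71 for Hmgb1 (adjusted p = 0.00257). The call for Lgals9 in WT cells was lost in 5 of 16 alternative fits. Among them were median-of-ratios scaling (-0.32, adjusted p = 0.101), no filter (adjusted p = 0.0501) and no variance trend (adjusted p = 0.0502). The other losses were without WT control replicate 1 (-0.42) or WT IL-33 replicate 1 (-0.37).

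Among other inhibitory receptors and ligands, 16 of 19 names were listed and 8 were tested, with 2 raised and 2 lowered by IL-33 in STAT3-KO cells and 4 raised and 1 lowered in WT cells, beside 20.4% and 30.6% of all tested genes in STAT3-KO cells and 14.5% and 21.6% in WT cells. Lag3, an inhibitory receptor for MHC class II, had 5.35 and 4.72 FPKM in IL-33-treated STAT3-KO cells, 0.381 and 1.19 FPKM in IL-33-treated WT cells, 0 FPKM in both STAT3-KO control libraries, and 0 and 0.0299 FPKM in WT control cells. Cd200, a ligand of the inhibitory receptor CD200R1, had 10.7 and 15.8 FPKM in IL-33-treated STAT3-KO cells, 0.847 and 1.13 FPKM in IL-33-treated WT cells, 0 and 0.15 FPKM in STAT3-KO control cells, and 0 and 0.057 FPKM in WT control cells. Both genes were near 0 in controls and highest in IL-33-treated STAT3-KO cells. Neither reached 1 FPKM in a control library, so their entry into the test depended on IL-33-treated libraries, and their calls are descriptions. With IL-33 the difference between STAT3-KO and WT cells was 1.79 ± 0.26 SE for Lag3 (limma adjusted p = 0.0013) and 2.82 ± 0.24 SE for Cd200 (adjusted p = 9.92e-05). With a pseudocount of 0.1 the Lag3 value was 2.70. The responses differed by 1.81 for Lag3 (adjusted p = 0.0141, and 0.0778 with a pseudocount of 0.1) and by 2.76 for Cd200 (adjusted p = 0.0021). The receptor gene Cd200r1 had 215 and 242 FPKM in IL-33-treated STAT3-KO cells, 312 and 290.3 FPKM in IL-33-treated WT cells, 208 and 204 FPKM in STAT3-KO control cells, and 199 and 186 FPKM in WT control cells, and rose with IL-33 in WT cells (0.64 ± 0.10 SE, adjusted p = 0.00144). Cd48, a ligand of CD244, had 25.2 and 31.4 FPKM in IL-33-treated STAT3-KO cells, 61.8 and 50.7 FPKM in IL-33-treated WT cells, 21.9 and 22.8 FPKM in STAT3-KO control cells, and 26.0 and 28.8 FPKM in WT control cells, and rose with IL-33 in WT cells (1.01 ± 0.15 SE, adjusted p = 0.00128).

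Of 19 names of signalling proteins below these receptors, 18 were listed and 17 tested. IL-33 lowered 12 and raised 0 in STAT3-KO cells (median -0.77), where it lowered 30.6% and raised 20.4% of all tested genes (median -0.18). It lowered 7 and raised 1 in WT cells (median -0.27), where it lowered 21.6% and raised 14.5% of all tested genes (median -0.14). With IL-33, 8 were lower and 1 was higher in STAT3-KO than in WT cells (median -0.79), beside 16.4% lower and 16.3% higher of all tested genes (median 0.01). Inpp5d, which encodes the lipid phosphatase SHIP-1, had 11.4 and 14.4 FPKM in IL-33-treated STAT3-KO cells, 66.6 and 74.1 FPKM in IL-33-treated WT cells, 73.0 and 71.5 FPKM in STAT3-KO control cells, and 58.6 and 83.1 FPKM in WT control cells. It stood apart in IL-33-treated STAT3-KO cells, where it was lower than in IL-33-treated WT cells by -2.37 on the log2 scale (± 0.18 SE, limma adjusted p = 5.64e-05). Lck, a kinase that phosphorylates such receptors in T cells, was lower in STAT3-KO than in WT cells with IL-33 (-2.46 ± 0.17 SE, adjusted p = 4.15e-05), at 0.628 and 0.538 FPKM against 8.64 and 6.84 FPKM. It was the 1 gene of the 7 lists called between the control groups, at 6.48 and 5.83 FPKM in STAT3-KO cells against 17.2 and 15.8 FPKM in WT cells (-1.29 ± 0.17 SE, adjusted p = 0.0204), and that call was lost without any 1 of the 8 libraries (adjusted p up to 0.238). The 1 gene of the list that was higher in STAT3-KO than in WT cells with IL-33 was Ptpn6, which encodes the phosphatase SHP-1 and was singled out after its values were seen (1.26 ± 0.15 SE, adjusted p = 0.000554). Ubash3a, a suppressor of T cell receptor signalling, had 10.9 and 13.6 FPKM in IL-33-treated STAT3-KO cells, 27.0 and 30.9 FPKM in IL-33-treated WT cells, 54.7 and 50.7 FPKM in STAT3-KO control cells, and 37.9 and 41.7 FPKM in WT control cells, and fell with IL-33 in STAT3-KO cells (-2.03 ± 0.14 SE, adjusted p = 1.56e-05). Fyn fell with IL-33 in STAT3-KO cells (-0.88 ± 0.19 SE, adjusted p = 0.00585) and in WT cells (-1.47 ± 0.19 SE, adjusted p = 0.00073). Inpp5k likewise fell in STAT3-KO cells (-0.64 ± 0.11 SE, adjusted p = 0.00216) and in WT cells (-1.09 ± 0.11 SE, adjusted p = 0.000218).

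Of 17 names of proteins that control the stability or trafficking of these receptors and ligands, 14 were listed and 11 tested. IL-33 raised 2 and lowered 4 in STAT3-KO cells, and raised 0 and lowered 4 in WT cells, beside 20.4% and 30.6% of all tested genes in STAT3-KO cells and 14.5% and 21.6% in WT cells. Cmtm6, which protects PD-L1 from degradation, had 165 and 174 FPKM in IL-33-treated STAT3-KO cells, 182 and 195 FPKM in IL-33-treated WT cells, 436 and 443 FPKM in STAT3-KO control cells, and 428 and 451 FPKM in WT control cells. It fell in STAT3-KO cells (-1.37 ± 0.09 SE, limma adjusted p = 8.9e-06) and in WT cells (-1.22 ± 0.09 SE, adjusted p = 2.83e-05). Cops5, a deubiquitinating enzyme that stabilises PD-L1 protein, had 39.7 and 28.2 FPKM in IL-33-treated STAT3-KO cells, 24.9 and 21.5 FPKM in IL-33-treated WT cells, 18.2 and 16.2 FPKM in STAT3-KO control cells, and 16.5 and 17.2 FPKM in WT control cells, and rose with IL-33 in STAT3-KO cells (0.92 ± 0.17 SE, adjusted p = 0.0026). Rc3h1, which encodes the Icos mRNA repressor Roquin-1, fell with IL-33 in STAT3-KO cells (-1.04 ± 0.20 SE, adjusted p = 0.00272) and in WT cells (-0.98 ± 0.20 SE, adjusted p = 0.00554). Between STAT3-KO and WT cells with IL-33, Fbxo38, a ubiquitin ligase component for PD-1, differed by -0.68 (adjusted p = 0.0193) and Cops5 by 0.51 (adjusted p = 0.0493). The Fbxo38 call was lost in 5 of 16 alternative fits. Among them were those without a filter on low values (adjusted p = 0.0531) and with only the groups compared (adjusted p = 0.0648). The other losses were without WT IL-33 replicate 1 (-0.79), WT IL-33 replicate 2 (-0.56) or STAT3-KO IL-33 replicate 1 (-0.48). The Cops5 call was lost in 13 of 16 alternative fits (adjusted p from 0.0142 to 0.238), among them those without any 1 library other than STAT3-KO IL-33 replicate 2, with a value of 0.27 without STAT3-KO IL-33 replicate 1.

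Of 15 transcription factors tied to checkpoint genes, all were listed and 12 tested. IL-33 raised 2 and lowered 6 in STAT3-KO cells, and raised 4 and lowered 6 in WT cells, beside 20.4% and 30.6% of all tested genes in STAT3-KO cells and 14.5% and 21.6% in WT cells. Batf, an AP-1 family factor, rose with IL-33 in STAT3-KO cells (1.41 ± 0.16 SE, limma adjusted p = 0.000184) and in WT cells (1.49 ± 0.16 SE, adjusted p = 0.000223). Tox, a factor of exhausted T cells and of ILC development, had 12.5 and 10.6 FPKM in IL-33-treated STAT3-KO cells, 5.67 and 6.27 FPKM in IL-33-treated WT cells, 27.2 and 27.8 FPKM in STAT3-KO control cells, and 24.9 and 21.3 FPKM in WT control cells. It fell with IL-33 in both genotypes, by 1.19 in STAT3-KO cells (adjusted p = 0.000274) and by 1.79 in WT cells (adjusted p = 5.27e-05), while Pdcd1 and Tigit rose. Prdm1, which encodes BLIMP-1, had 2.69 and 2.44 FPKM in IL-33-treated STAT3-KO cells, 16.4 and 14.1 FPKM in IL-33-treated WT cells, 3.28 and 3.21 FPKM in STAT3-KO control cells, and 1.68 and 4.67 FPKM in WT control cells. Like Ctla4, it stood highest in IL-33-treated WT cells (STAT3-KO minus WT with IL-33 -2.18 ± 0.31 SE, adjusted p = 0.00126). Irf1, a factor for PD-L1 transcription in other cells, had 40.6 and 54.7 FPKM in IL-33-treated STAT3-KO cells, 34.1 and 32.8 FPKM in IL-33-treated WT cells, 54.8 and 59.7 FPKM in STAT3-KO control cells, and 84.9 and 93.6 FPKM in WT control cells, and fell with IL-33 in WT cells (-1.39 ± 0.15 SE, adjusted p = 0.000222). Tox2 was lower in STAT3-KO than in WT cells with IL-33 (-0.86 ± 0.14 SE, adjusted p = 0.00279), and rose with IL-33 in WT cells (0.79 ± 0.14 SE, adjusted p = 0.00372).

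Genes whose level followed that of a checkpoint gene most closely were found by Pearson r of log2(FPKM + 1) over the 8 libraries, 2 for each of 9 genes. Cd274 was left out because its SD over the libraries was below 0.5. With 8 libraries in 4 groups such values are mostly set by the group means, and they are given as a description. For Ctla4 they were Usp17ld (r = 0.990) and Calu (r = 0.987). Usp17ld had 1.05 and 0.878 FPKM in IL-33-treated STAT3-KO cells, 23.3 and 17.6 FPKM in IL-33-treated WT cells, and 0 FPKM in all 4 control libraries. For Cd83 they were Acss2 (r = 0.989) and Aldh2 (r = 0.985). For Cd80 they were Crip2 (r = 0.995) and Cdkn2b (r = 0.994), and Cdkn2b had 259 and 241 FPKM in IL-33-treated STAT3-KO cells, 62.1 and 73.5 FPKM in IL-33-treated WT cells, 41.4 and 39.6 FPKM in STAT3-KO control cells, and 15.7 and 17.6 FPKM in WT control cells. For Havcr2 they were Itm2a (r = 0.984) and Slc31a2 (r = 0.978). For Klrg1 they were Cdt1 (r = 0.989) and Rnf6 (r = 0.987). For Pdcd1 they were Hsd17b12 (r = 0.995) and Zbtb32 (r = 0.992), for Tigit Gmds (r = 0.986) and Gtf2e2 (r = 0.985), for Icos Aldh3a2 (r = 0.992) and Antxr2 (r = 0.990), and for Icosl Fam129a (r = 0.999) and Llgl1 (r = 0.996).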

How the data were processed

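The data are a deposited table of FPKM values for 22075 genes in 8 libraries. Bowtie2, RSEM and GRCm38 are named in the submitters' processing notes, and the authors' steps from reads to FPKM are not described further; versions, annotation release and strand setting are not given in the sources used here. Gene IDs were matched to GENCODE release 21 on GRCm38 (22041 of 22075). FPKM times exon length gave whole reads for 93.4% to 94.6% of low values per library (within 0.02 of a whole read), hence the depths of 15800000 to 19900000 reads; RSEM's estimated counts need not be whole, so these values look more like counts of reads and how the FPKM were made is uncertain; of the 10 genes, all but Tigit and Cd80 gave whole reads within 0.2. Genes with at least 1 FPKM in at least 2 libraries (11877) were tested on log2(FPKM + 1) with limma 3.58.1 in R 4.3.3, a mean per group, an empirical Bayes prior with trend, two-sided, and Benjamini-Hochberg adjustment, called at 0.05. The 4 groups share 1 estimate of spread, with 4 residual degrees of freedom. Tables were made with Python 3.11.15, pandas 2.3.3 and numpy 2.4.6. The fit was also run on 1 simulated data set, for the comparison of IL-33 with control in WT cells. It had the same spread setting for all genes, and changes only in genes averaging at least 5 FPKM. It therefore does not cover low genes such as Ctla4 or the replicate spread seen for Tigit.

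The 10 genes and all lists were chosen with earlier results of these data known. Of each pathway list, the text names in each comparison the 2 called genes of smallest p whose higher group averaged at least 5 FPKM; not every such call is printed. Marker and pathway lists come from general knowledge, and a gene listed under none of its names is absent from the table used, not at 0. Some unlisted names are second names of listed genes. These are Pvrl1 to Pvrl4 (Nectin1 to Nectin4), Cd244a (Cd244), Bat3 (Bag6), Csn5 (Cops5), Marchf1 (March1) and Marchf8 (March8). Alternatives were a pseudocount of 0.1, no filter, median-of-ratios or TPM scaling, removal of a trend with gene length, a replicate block, fitting only the groups compared, no variance trend, and leaving out each library. Applying them to Stat3 and the list genes was chosen after seeing the data.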

Additional observations from a re-analysis of the deposited data

Results flagged for a closer look

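The response to IL-33 differed between STAT3-KO and WT cells for 4 of the 10 genes, by the interaction term of the limma fit over all 8 libraries with Benjamini-Hochberg adjustment. As STAT3-KO minus WT response on the log2(FPKM + 1) scale, the difference was 2.93 for Cd83 (adjusted p = 0.00256), -2.86 for Ctla4 (adjusted p = 0.00213), -1.15 for Klrg1 (adjusted p = 0.00165) and 0.69 for Cd80 (adjusted p = 0.0466). Ctla4 entered the test only through the 2 libraries of IL-33-treated WT cells, so its call and its place among the 4 are descriptions. The Cd83 level was higher with IL-33 in both STAT3-KO libraries and lower with IL-33 in both WT libraries than in every control library of the same genotype. Ctla4 and Klrg1 kept their calls in all 15 alternative fits, as did Cd83, and Cd80 kept its call in 1 of 15.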

How the results depend on the processing

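The 50 differences of the 10 genes gave 790 values under the alternative settings, of which 738 kept their direction and their side of the threshold, 26 lost the call, 11 gained one and 15 changed sign. The sign changes were in differences that did not pass the test. They were Klrg1 with IL-33 in WT cells (length trend removed -0.025, leave-one-out range -0.027 to 0.15), Cd274 with IL-33 in STAT3-KO cells (median-of-ratios 0.033, leave-one-out -0.35 to 0.018), Icosl between controls (median-of-ratios -0.0082, leave-one-out -0.20 to 0.23), and Tigit between controls (leave-one-out -1.53 to 0.13), between genotypes with IL-33 (TPM -0.067, length trend removed -0.099, leave-one-out -0.20 to 0.26) and between responses (leave-one-out -0.10 to 1.56). Stat3 and the named list genes kept 828 of 903 values, lost the call in 75 and changed sign in 0. Of those calls, the Cd96 and Pvr differences between responses were lost in 10 and 7 of 15 settings. Stat3 between the control groups was lost without STAT3-KO control replicate 1 (adjusted p = 0.0749) or replicate 2 (adjusted p = 0.0692) and when only the groups compared were fitted (adjusted p = 0.216).

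The number of the 10 genes called stayed within 1.5 times its value in every comparison, with leave-one-out ranges of 8 to 8 for IL-33 in STAT3-KO cells, 6 to 8 for IL-33 in WT cells, 5 to 6 between genotypes with IL-33 and 3 to 4 between responses. Over all genes, the 55 calls between control groups were 34 with a pseudocount of 0.1, 0 with only the groups compared and 1 to 35 in leave-one-out fits. The 4285 calls for IL-33 in WT cells were 2550 to 4301 in leave-one-out fits, the 3876 between genotypes with IL-33 were 2117 to 4013, and the 1799 between responses were 1149 without the filter and 764 to 1993 in leave-one-out fits. Median-of-ratios scaling moved the median of all genes to 0.0025 for IL-33 in WT cells, against -0.14, and TPM moved it to -0.35 for IL-33 in STAT3-KO cells, against -0.18. With the replicate block, 9 of the 10 genes were called for IL-33 in WT cells and 3 between responses, where Cd80 was lost (0.69, adjusted p = 0.0544), and 37 genes in all between controls. Deviations of same-numbered libraries from their group means correlated between -0.062 and 0.045, so the numbers were not taken as pairs. The cause of these changes was not tested. At the depths recovered, 3 reads in 1 kb correspond to 0.151 to 0.189 FPKM, and 3 reads in the longer Ctla4 to 0.0647 to 0.0813 FPKM. The Ctla4 floor limits what can be said of this gene in controls, and it covers counting error only.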
